A study of Mus musculus with 16 samples.

Results

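Hippocampal mRNA was compared between mice that had a kainic acid seizure while MEK was inhibited and mice given the MEK inhibitor alone. The samples were chosen by their titles, and they are 6 of the 16 arrays analysed here, 3 of the combined treatment and 3 of SL327 alone. All mice were male wildtype C57BL/6, 3 months old. Mice of the combined treatment received SL327 (50 mg/kg) 1 h before kainic acid (20 mg/kg), and tissue was taken 1 h after seizure onset. Mice of the SL327 group received SL327 (50 mg/kg) without kainic acid, and their labels give 1 h after the inhibitor. The study's text calls its array controls time matched, and mice used for its brain sections were taken 2 h after SL327. If the arrays followed the label, the time since SL327 was longer in the combined treatment, and its effect cannot be told apart from that of kainic acid. The sources used here do not say whether the SL327 group also received a PBS injection, and they do not record seizures mouse by mouse. Mice given kainic acid (20 mg/kg, 3 arrays, 1 h after seizure onset) and vehicle (3 arrays, 1 h) served to name the genes that kainic acid induces without inhibitor, and 4 untreated mice entered the fit. Each array held RNA of 1 hippocampus, read on an Affymetrix exon array, and all values below are log2 intensities of probe sets as normalised by the authors.

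Kainic acid is an agonist of glutamate receptors and drives neurons of the hippocampus into synchronous firing. Calcium entering through synaptic receptors and voltage-gated channels activates several kinase pathways, among them calmodulin-dependent kinases, protein kinase A and the Ras-Raf-MEK-ERK cascade. These pathways converge on CREB, SRF and their partners, which switch on immediate early genes within minutes. SL327 crosses the blood-brain barrier and blocks MEK, so that ERK is not phosphorylated, and a response seen in its presence is one that does not need MEK activity as far as the block was complete.

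With all 3 mice of the combined treatment, no probe set passed the test across the whole array, although several activity-regulated genes were among the largest rises. Of 8520 probe sets tested by limma, 0 were higher and 0 lower with the combined treatment than with SL327 alone (0% called at an adjusted p of 0.05), and the smallest adjusted p was 0.165. At an unadjusted p under 0.05, 227 probe sets were higher (2.66%) and 670 lower (7.86%). In 373 probe sets (4.38%) all 3 arrays of the combined treatment lay above all 3 SL327 arrays, and in 1109 (13%) they lay below. This excess of lower values was small in size, since the median change over all tested probe sets was -0.03. It shrank when each array was centred on its median, to 352 higher and 458 lower at an unadjusted p under 0.05, and with quantile normalisation to 380 and 452. Probe sets with arrays apart then numbered 634 above and 802 below after centring, and 633 and 790 after quantile normalisation. The largest rises among probe sets whose arrays did not overlap were those of Btg2, Junb, Braf, Arc, Rgs2, Ddx6, Rpl10, Tiparp, Supt6 and Ranbp2, between 1.62 for Btg2 and 0.65 for Ranbp2. Those of Ddx6 and Supt6 came from 1 of their 2 tested probe sets, and the other changed by -0.01 for Ddx6 and 0.04 for Supt6. That of Ranbp2 came from probe set 6768096, at 6.11, 6.12 and 6.74 against 5.87, 5.57 and 5.59. These are low values, below the medians of the same arrays, which were between 7.35 and 7.39. Only its kainic acid arrays were high, at 8.25, 8.68 and 9.04. Ranbp2 probe set 6768094, with higher values, changed by 0.18.

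Replicate 2 of the combined treatment stood apart from replicates 1 and 3. Across tested probe sets its mean correlation was 0.981 with the SL327 arrays and 0.97 with the other arrays of the combined treatment. Replicate 1 had 0.972 and 0.977, and replicate 3 had 0.961 and 0.973, for the same comparisons. Replicate 2 thus resembled the SL327 arrays more than its own group, and the other arrays did the reverse. Without this array, limma called 32 probe sets higher (0.376% of those tested) and 15 lower (0.176%). Leaving out any other of the 16 arrays gave 0 higher and 0 lower. Since the array was singled out by its own values, these calls and their p values describe replicates 1 and 3 and are given beside the values of all 3 mice.

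The genes that kainic acid induces most strongly were moderately higher in 2 of the 3 mice of the combined treatment. Kainic acid alone raised 631 probe sets (7.41%) and lowered 1042 (12.2%) against vehicle. The arrays of that comparison did not enter the means of the combined treatment or of SL327 alone. They did enter the estimate of the spread, which all groups share, so the p values of both comparisons are not independent. Of the 631, 367 (58.2%) had a positive change in the combined treatment, against 36.7% of all tested probe sets. Of the 98 that kainic acid raised by at least 0.9, 85 (86.7%) had a positive change and 45 (45.9%) reached an unadjusted p under 0.05. Their median change was 0.26 (quartiles 0.08 and 0.51), against 1.26 with kainic acid alone. Relative to the SL327 mean, these 98 probe sets had a median of 0.32 in replicate 1, of 0.05 in replicate 2 and of 0.35 in replicate 3, against 0.01, -0.05 and 0.03 in the 3 SL327 arrays. Replicates 1 and 3 thus lay well above the SL327 arrays, and replicate 2 lay just above them. Replicate 1 exceeded all 3 SL327 arrays in 78 of the 98 probe sets, replicate 3 in 70 and replicate 2 in 31, and the shares over all tested probe sets were 21.2%, 21.7% and 19.7% in the same order.

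The size of the remaining response differed widely between genes. The change in the combined treatment was a median of 18.9% of the kainic acid change over the 98 probe sets, and 28.2% without replicate 2. Over these probe sets the changes with and without inhibitor correlated at r = 0.68, a description across probe sets that are not independent and that share the normalisation. The same fit tested the interaction, meaning the kainic acid response under SL327 minus the one without inhibitor. It was negative, meaning a smaller response with inhibitor, in 322 probe sets (3.78%) and positive in 169 (1.98%). Among the 98 strongly induced probe sets 71 had a smaller response with inhibitor and 0 a larger one. This count shares the kainic acid and vehicle arrays with the comparison that chose the 98, and it is given as a description.

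**Figure D1:**
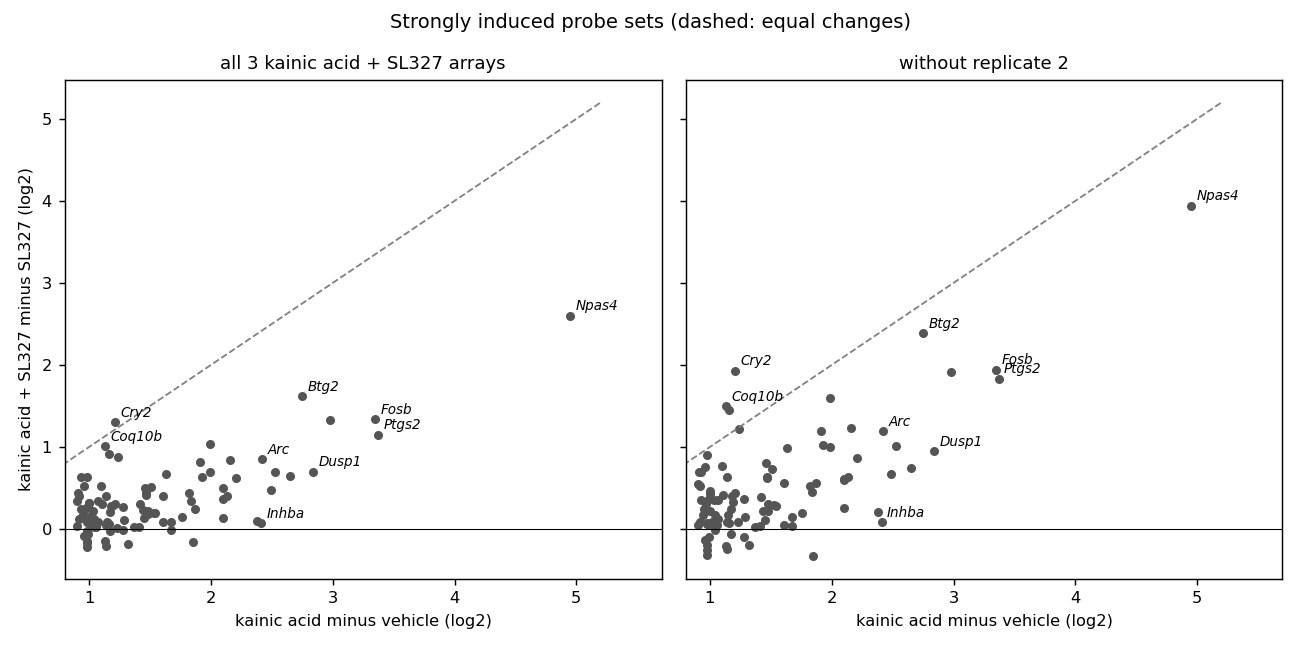
Change in kainic acid with SL327 minus SL327 alone (vertical axis, log2) against the change in kainic acid minus vehicle (horizontal axis, log2) for the 98 strongly induced probe sets, with all 3 arrays of the combined treatment (left) and without replicate 2 (right). Most points lie between 0 and the dashed line of equal changes, the median on the vertical axis is 0.26 on the left and 0.35 on the right, and Cry2 lies above the line in both panels.

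Immediate early transcription factors, which neurons transcribe within minutes of firing, ranged between a change of 2.60 for Npas4 and values near 0. Npas4, a transcription factor induced by calcium entry, was at 11.99, 8.13 and 12.27 in the combined treatment, against 8.21, 7.96 and 8.41 in SL327 alone. Replicates 1 and 3 came close to the kainic acid arrays, which had 12.03, 13.11 and 12.89 against 7.65, 8.12 and 7.42 in vehicle, while replicate 2 stayed within the SL327 range. The change was 2.60 (SE 0.76, adjusted p = 0.287) and 3.94 without replicate 2 (SE 0.33, adjusted p = 1.37e-04), and kainic acid alone gave 4.95 (SE 0.76). The difference between both responses, -2.35 (SE 1.08), did not pass (adjusted p = 0.221), and with this error it does not show that both responses were alike.

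The AP-1 genes differed in how far replicate 2 departed from the SL327 arrays. Fosb, a partner of Jun proteins in AP-1, was at 9.12, 7.39 and 9.24 in the combined treatment, against 7.21, 7.09 and 7.42 in SL327 alone. Fos was at 9.29, 7.38 and 8.95 against 7.13, 7.08 and 7.42. In both genes replicate 2 lay inside the range of the SL327 arrays. The change was 1.34 for Fosb (SE 0.42, adjusted p = 0.299) and 1.33 for Fos (SE 0.47, adjusted p = 0.36), and without replicate 2 Fosb passed at 1.94 (adjusted p = 0.0147) and Fos did not at 1.91 (adjusted p = 0.059). Junb was at 7.68, 6.79 and 7.95 against 6.44, 6.69 and 6.65, so that its arrays did not overlap. Its change of 0.88 (SE 0.25) stood at 70.7% of that with kainic acid alone, and it was 1.22 without replicate 2 (adjusted p = 0.0147). Jun was at 10.16, 9.63 and 10.40 against 9.45, 9.65 and 9.56, with replicate 2 again among the SL327 arrays. Fosl2, also an AP-1 partner, was at 8.92, 8.66 and 9.03 against 8.31, 8.36 and 8.45, and its 3 arrays lay above all SL327 arrays. Its change of 0.50 (SE 0.13) was 23.9% of that with kainic acid, with an interaction of -1.60 (adjusted p = 1.31e-04). Jund, a further AP-1 member, was at 8.82, 8.81 and 8.87 against 8.77, 8.80 and 8.82, a change of 0.04 (SE 0.08) beside 0.90 with kainic acid.

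The Nr4a nuclear receptors, which act without a known ligand and are induced by cAMP and calcium, were higher in replicates 1 and 3. Nr4a1 was at 9.57, 8.37 and 9.51 in the combined treatment, against 8.21, 8.28 and 8.44 in SL327 alone. Nr4a3 was at 9.53, 8.73 and 9.41 against 8.54, 8.57 and 8.69, and here replicate 2 also exceeded the SL327 arrays. The changes were 0.84 (SE 0.26) and 0.62 (SE 0.18), and 1.23 (adjusted p = 0.0103) and 0.87 (adjusted p = 0.0196) without replicate 2. Of 33 listed immediate early transcription factors 19 were tested, and 7 of these would not have passed the filter on low values without the kainic acid arrays. Of the 19, 0 passed the adjusted p, 11 were higher at an unadjusted p under 0.05 (2.66% of all tested probe sets), and the median change was 0.28, against -0.03 over all. Without replicate 2 limma called 6 of the 19 higher (0.376% of all), namely Npas4, Fosb, Nr4a1, Junb, Nr4a3 and Jun, with a median of 0.37. The responses of 11 members were smaller with inhibitor (3.78% of all). Egr3, a zinc finger factor of the Egr family, was at 8.72, 8.50 and 9.03 in the combined treatment, against 8.60, 8.65 and 8.61 in SL327 alone, beside a kainic acid response of 2.10.

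**Figure D2:**
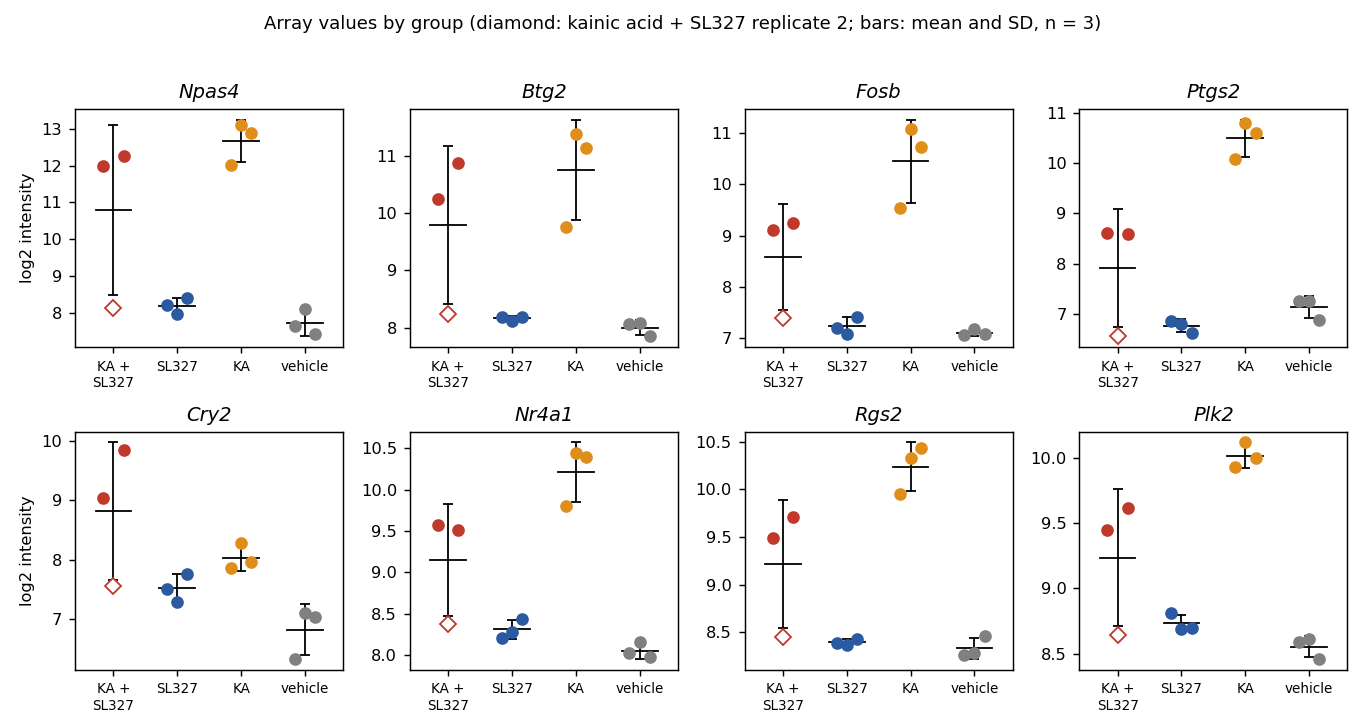
Log2 intensity of 8 genes in the 3 arrays of kainic acid with SL327, SL327 alone, kainic acid and vehicle, with the mean and SD of each group (n = 3) and replicate 2 of the combined treatment as an open diamond. In each panel replicates 1 and 3 of the combined treatment lie above all 3 SL327 arrays and the diamond lies at their level, and for Cry2 the same 2 replicates also exceed the kainic acid arrays.

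The promoters of the 32 genes called higher without replicate 2 were searched for the elements through which the kinase pathways above reach immediate early genes. The sequences are the 250 bases before the annotated start (RefSeq, GRCm38.p6), and 29 of the 32 genes had an entry. The full cAMP response element TGACGTCA, bound by CREB, stood in 5 of the 29 (17.2%), namely Braf, Btg2, Errfi1, Plk2 and Ppp1r15a, against 1.77% of the 27025 genes with a promoter and 3.24% of the tested genes. Its core CGTCA, searched on both strands and contained in the full element, stood in 17 of the 29 (58.6%), against 31.6% of the tested genes and 19.8% of all genes. The CArG box bound by SRF, which is CC, 6 letters of A or T and GG, stood in 0 of the 29, against 1.34% of the tested genes, 1.62% of all genes and 6.17% of the genes that kainic acid induced strongly. Among those strongly induced genes the full element stood in 11.1% and the core in 59.3%, close to the shares of the 29. A match describes these letters only and does not show binding. Among the 29, Braf rose in probe set 6952967 but not in its other probe set. The annotation of Psma3, which holds neither element, is uncertain, as given below. Of the promoters shown, those of Npas4 at chr19:4989972-4990221 (- strand), Nr4a1 at chr15:101266596-101266845 (+ strand) and Coq10b at chr1:55052520-55052769 (+ strand) hold the core without the full element, those of Btg2 at chr1:134079156-134079405 (- strand) and Plk2 at chr13:110394794-110395043 (+ strand) hold the full element, and that of the clock gene Ciart at chr3:95882229-95882478 (- strand) holds neither. Capitals mark the full element or the core.
Npas4: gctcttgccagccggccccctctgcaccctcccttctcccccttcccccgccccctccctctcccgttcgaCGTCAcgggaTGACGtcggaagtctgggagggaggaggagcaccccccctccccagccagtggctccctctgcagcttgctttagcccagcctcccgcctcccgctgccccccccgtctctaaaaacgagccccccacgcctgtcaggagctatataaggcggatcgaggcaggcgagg
Nr4a1: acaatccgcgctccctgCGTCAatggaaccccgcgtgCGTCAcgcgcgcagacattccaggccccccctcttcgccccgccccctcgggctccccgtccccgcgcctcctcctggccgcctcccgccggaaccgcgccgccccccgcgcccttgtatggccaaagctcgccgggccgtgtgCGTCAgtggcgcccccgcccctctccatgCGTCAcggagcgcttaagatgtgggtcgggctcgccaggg
Coq10b: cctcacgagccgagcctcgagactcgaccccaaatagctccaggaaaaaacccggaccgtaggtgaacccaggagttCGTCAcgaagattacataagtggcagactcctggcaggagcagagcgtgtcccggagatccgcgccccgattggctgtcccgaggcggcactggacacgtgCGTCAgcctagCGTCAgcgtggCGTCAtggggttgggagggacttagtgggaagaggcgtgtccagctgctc
Btg2: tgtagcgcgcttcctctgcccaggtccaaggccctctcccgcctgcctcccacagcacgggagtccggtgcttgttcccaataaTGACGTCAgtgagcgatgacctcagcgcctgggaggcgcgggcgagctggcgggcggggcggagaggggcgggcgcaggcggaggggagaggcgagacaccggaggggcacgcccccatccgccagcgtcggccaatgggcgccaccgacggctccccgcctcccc
Plk2: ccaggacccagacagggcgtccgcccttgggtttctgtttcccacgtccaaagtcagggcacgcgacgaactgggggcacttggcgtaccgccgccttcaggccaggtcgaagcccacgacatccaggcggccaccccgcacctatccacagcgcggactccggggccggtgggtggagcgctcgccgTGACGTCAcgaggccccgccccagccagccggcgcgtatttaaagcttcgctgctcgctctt
Ciart: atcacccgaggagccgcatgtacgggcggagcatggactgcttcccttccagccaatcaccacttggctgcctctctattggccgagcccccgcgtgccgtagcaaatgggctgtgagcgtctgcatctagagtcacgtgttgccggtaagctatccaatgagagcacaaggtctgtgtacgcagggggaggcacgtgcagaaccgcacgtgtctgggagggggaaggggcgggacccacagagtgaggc
These 6 were taken because the genes lead the comparison and differ in the element they hold.

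Effector genes at the synapse and in secretion, the second tier of activity-regulated genes, split into those with a remaining response and those without. Ptgs2, the inducible cyclooxygenase of prostaglandin synthesis, was at 8.60, 6.55 and 8.59 in the combined treatment, against 6.86, 6.80 and 6.62 in SL327 alone. Replicate 2 was thus the lowest of the 6 arrays while the other mice were far above. The change was 1.15 (SE 0.40, adjusted p = 0.346) and 1.83 without replicate 2 (SE 0.19, adjusted p = 5.83e-04). It was smaller than with kainic acid alone, by an interaction of -2.22 (adjusted p = 0.0327). Rgs2, which shortens G protein signalling, was at 9.49, 8.45 and 9.71 against 8.39, 8.37 and 8.43, a change of 0.82 (SE 0.23) and 1.20 without replicate 2 (adjusted p = 2.34e-04). Plk2, a kinase that acts on dendritic spines, was at 9.45, 8.64 and 9.62 against 8.81, 8.69 and 8.70, with 0.50 and 0.80 (adjusted p = 1.44e-04) in the same order. In both genes the spread between replicates 1 and 3 was small beside the change.

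Arc, a postsynaptic protein that regulates AMPA receptor traffic, was at 10.53, 9.46 and 10.43 in the combined treatment, against 9.43, 9.08 and 9.34 in SL327 alone, so that the arrays did not overlap. In 4 of the 6 arrays its level nevertheless lay below the 9.90, 9.99 and 9.90 of vehicle treated mice, and in all 6 it lay below the 12.29, 12.40 and 12.35 after kainic acid. The change was 0.85 (SE 0.28, adjusted p = 0.315) and 1.19 without replicate 2 (adjusted p = 0.0505), against 2.42 with kainic acid. Homer1, which encodes a scaffold of the postsynaptic density, was at 8.81, 8.91 and 8.79 against 8.82, 8.62 and 8.81, a change of 0.09 (SE 0.07) beside a kainic acid response of 1.61 (interaction -1.52, adjusted p = 2.87e-06). Inhba, a subunit of activin, was at 7.15, 7.02 and 6.98 against 7.05, 7.00 and 6.90, with 0.07 (SE 0.19) beside 2.41. Nptx2, a secreted pentraxin of excitatory synapses, had 0.10 (SE 0.14) beside 2.38. For these genes the arrays of the combined treatment and of SL327 overlapped, and the interaction passed the test for each (adjusted p = 1.42e-04 for Inhba and 1.37e-05 for Nptx2). Bdnf, the neurotrophin, was at 6.78, 6.47 and 6.94 against 6.44, 6.40 and 6.42, a change of 0.31 (SE 0.13) beside 1.21.

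Of 33 listed synaptic and secreted effectors 29 were tested, and 6 of them would not have passed the filter without the kainic acid arrays. The median change was 0.14, 10 were higher and 1 lower at an unadjusted p under 0.05, and 0 passed the adjusted p, where the shares of all tested probe sets were 2.66% higher and 7.86% lower. Without replicate 2 the calls were 6 higher (0.376% of all), and the responses of 22 members were smaller with inhibitor than without. The group thus held a larger share of members with a smaller response than the immediate early transcription factors, 22 of 29 against 11 of 19, a difference that was not tested.

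Among the strongly induced genes the clock gene Cry2 had the largest response relative to that with kainic acid alone. Cry2, a repressor of the circadian clock, was at 9.04, 7.56 and 9.85 in the combined treatment, against 7.50, 7.29 and 7.76 in SL327 alone. Both high values exceeded the kainic acid arrays, which had 7.85, 8.28 and 7.96 against 6.32, 7.09 and 7.03 in vehicle. The SL327 arrays already lay above those of vehicle. Kainic acid alone gave 1.21, which passed narrowly in limma (adjusted p = 0.0476) with 1 vehicle array low at 6.32. The change in the combined treatment was 1.30 (SE 0.40, adjusted p = 0.299), or 107% of that with kainic acid, and 1.93 without replicate 2 (SE 0.26, adjusted p = 0.00477). The interaction was 0.09 (SE 0.57, adjusted p = 0.949). Ciart, a further clock repressor, was at 8.49, 7.82 and 9.25 against 7.49, 7.86 and 7.78, with 0.81 (SE 0.24) and 1.16 without replicate 2 (adjusted p = 0.0102). Its kainic acid arrays had 7.80, 7.96 and 8.10 against 7.49, 7.29 and 7.23 in vehicle, a change that did not pass (0.62, adjusted p = 0.0864). Per1, which is both a clock gene and a CREB target, was at 9.98, 9.41 and 9.85 against 9.28, 9.33 and 9.44, and its response of 0.40 was smaller than the 1.61 with kainic acid (interaction -1.21, adjusted p = 5.40e-04). Of 16 listed clock genes 11 were tested, and the median change was -0.02. Cry2, Ciart and Per1 were the members called higher without replicate 2 (0.376% of all tested probe sets). Tef, a transcriptional output of the clock, was at 8.64, 8.74 and 8.60 against 8.88, 8.79 and 8.79, below all SL327 arrays by 0.16 without passing the test.

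In replicates 1 and 3, but not in replicate 2, Btg2 and Coq10b were at the level seen with kainic acid alone. Btg2, an antiproliferative gene that promotes mRNA deadenylation, was at 10.25, 8.23 and 10.87 in the combined treatment, against 8.19, 8.12 and 8.19 in SL327 alone. The change was 1.62 (SE 0.50), or 58.7% of that with kainic acid, and 2.39 without replicate 2 (adjusted p = 0.00604). The difference from the kainic acid response was -1.14 (SE 0.71) and did not pass (adjusted p = 0.373), an error too large to show that the responses were alike. Coq10b, which encodes a coenzyme Q binding protein of mitochondria, was at 9.20, 7.99 and 9.70 against 7.73, 8.00 and 8.11, a change of 1.01 (SE 0.29), or 89.9%, and 1.50 without replicate 2 (adjusted p = 8.98e-04). In both genes replicates 1 and 3 reached or exceeded the level of the kainic acid arrays, which ranged between 9.75 and 11.38 for Btg2 and between 8.82 and 8.98 for Coq10b. Psma3, annotated as a proteasome subunit, was at 9.51, 7.83 and 9.41 against 8.52, 8.05 and 7.46 (78% of the kainic acid change), and its probe set number (6952469) stands next to that of Lncpint (6952470), so that its annotation was not taken further. Rpl10, a ribosomal protein, was at 7.98, 7.36 and 8.45 against 7.35, 6.96 and 7.33 with a kainic acid change of 0.27 that did not pass, and since ribosomal protein genes have many near-identical copies its signal may not be specific.

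**Figure D3:**
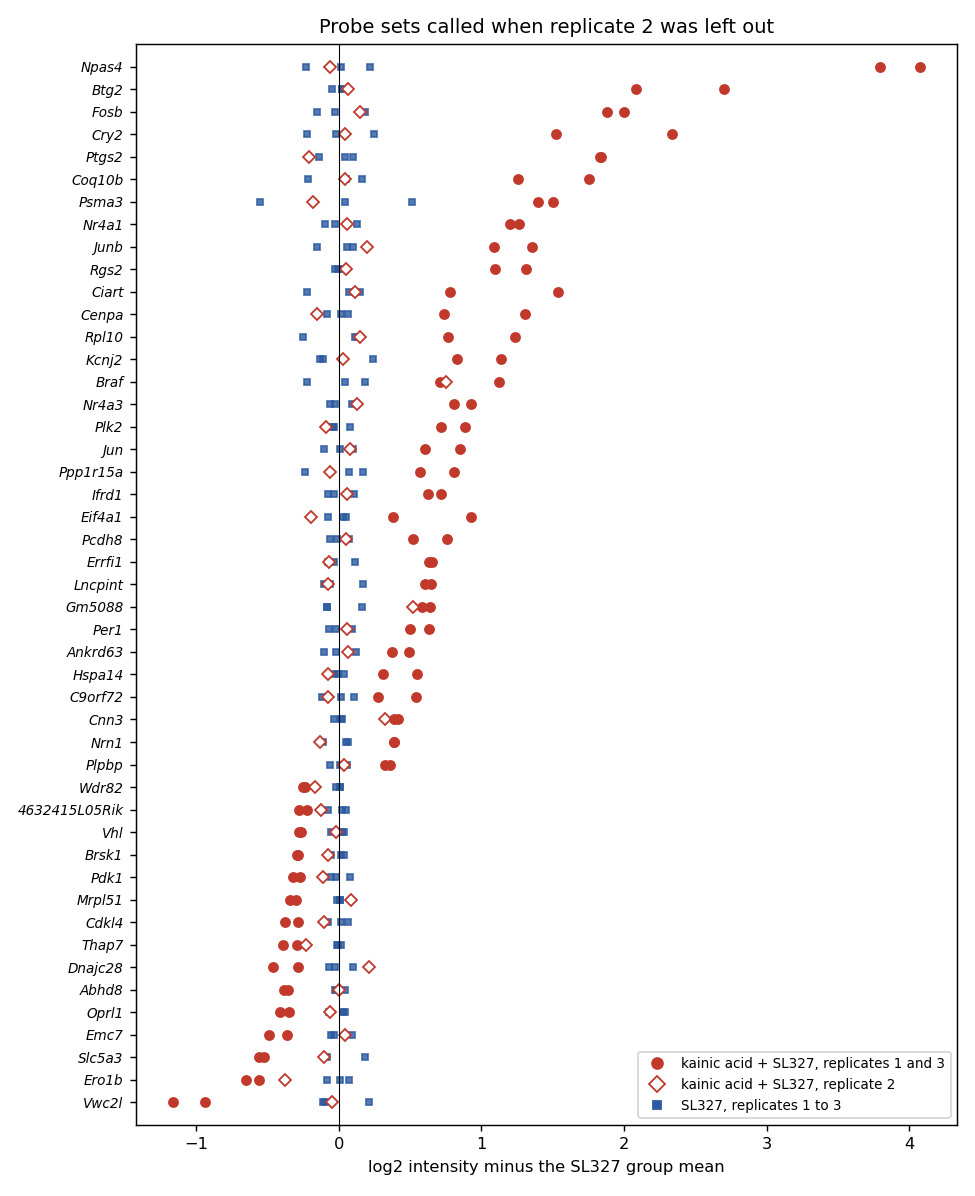
Log2 intensity minus the mean of the SL327 group (horizontal axis) of the 47 probe sets called when replicate 2 was left out, 32 higher and 15 lower, for the arrays of kainic acid with SL327 and of SL327 alone. The open diamond of replicate 2 lies inside the range of the SL327 arrays for 18 of the 32 and 5 of the 15, and in Braf, Gm5088 and Cnn3 it lies with replicates 1 and 3.

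The position of replicate 2 varied among the 32. In 18 it lay inside the range of the 3 SL327 arrays and in 8 above it. In Braf, Gm5088 and Cnn3 it lay with the other replicates of the combined treatment. Cnn3, an actin-binding calponin, was at 7.87, 7.78 and 7.84 in the combined treatment, against 7.42, 7.48 and 7.47 in SL327 alone. Gm5088 (probe set 6820972) was at 8.22, 8.16 and 8.28 against 7.80, 7.56 and 7.56, which is a change of 0.58 (SE 0.10) and one larger than with kainic acid alone (interaction 0.56, adjusted p = 0.0362). Vehicle treated mice had 8.06, 8.11 and 8.12 for Gm5088 and 7.78, 7.75 and 7.59 for Cnn3. For both genes the SL327 arrays were therefore the low ones, below vehicle and below the combined treatment. Braf, a kinase upstream of MEK, was at 7.98, 8.02 and 8.39 against 7.45, 7.05 and 7.31 in probe set 6952967, while its other probe set 6952963 had 8.67, 8.54 and 8.68 against 8.71, 8.66 and 8.68, so the gene as a whole showed no uniform change.

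The 32 overlapped largely with the genes that kainic acid induces without inhibitor. Of them 27 (84.4%) were also called higher by kainic acid against vehicle, which is 4.28% of the 631, and 22 were among the 98 strongly induced (22.4%). Both calls share the estimate of the spread. The remaining 5 were Ciart, Rpl10, Gm5088, Ankrd63 and C9orf72. Changes without replicate 2 ranged between 0.35 for Plpbp and 3.94 for Npas4. With replicate 2 left out and a further array or setting changed, including fits with 1 array left in the combined treatment, Npas4, Coq10b, Plk2 and Rgs2 were called in 28 of 28 alternatives, Btg2, Errfi1 and Ptgs2 in 27, and Cry2 and Nr4a1 in 26. Fosb, Jun and Ppp1r15a were called in 21, 16 and 11.

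The MAP kinase phosphatases are negative regulators of ERK signalling, and none of those tested was called by limma with or without replicate 2. Dusp1, a phosphatase of MAP kinases, was at 11.05, 10.12 and 10.69 in the combined treatment, against 9.52, 10.03 and 10.21 in SL327 alone. Kainic acid alone gave 10.86, 11.88 and 11.88 against 8.49, 8.85 and 8.76 in vehicle, so that the SL327 arrays already exceeded those of vehicle. The change was 0.70 (SE 0.29, adjusted p = 0.422), 0.95 without replicate 2 (adjusted p = 0.184), and smaller than the 2.84 with kainic acid (interaction -2.14, adjusted p = 0.00625). Dusp6, which is specific for ERK, was at 7.69, 7.27 and 7.64 against 7.04, 7.11 and 7.24, and Dusp5 (probe set 6870461) was at 8.84, 8.48 and 8.58 against 8.22, 8.16 and 8.21. The arrays of both genes did not overlap, with changes of 0.40 (SE 0.12) and 0.44 (SE 0.18), but neither was called with or without replicate 2. For Dusp6 this was 43.5% of the kainic acid change of 0.92, and the difference did not pass (interaction -0.52, adjusted p = 0.101). Dusp4 was at 7.06, 6.97 and 7.14 against 7.02, 7.03 and 7.09 beside a kainic acid response of 0.63. Of 12 listed MAP kinase phosphatases 8 were tested, and 2 of these would not have passed the filter without the kainic acid arrays. At an unadjusted p under 0.05, 4 were higher (2.66% of all tested probe sets), and 4 had a smaller response with inhibitor (3.78% of all).

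Among Sprouty and related feedback genes and the cascade itself, Errfi1 was the gene called without replicate 2 apart from 1 probe set of Braf. Spry2, an inhibitor of receptor tyrosine kinase signalling, was at 7.05, 7.04 and 6.86 in the combined treatment, against 6.89, 6.81 and 6.84 in SL327 alone, a change of 0.14 (SE 0.08) beside 1.45 with kainic acid (interaction -1.31, adjusted p = 1.37e-05). Errfi1, a feedback inhibitor of the EGF receptor, was at 9.61, 8.89 and 9.59 against 8.88, 8.92 and 9.07, a change of 0.40 (SE 0.14) and 0.64 without replicate 2 (adjusted p = 0.00395). It was the only one of the 12 tested of 15 Sprouty, Spred, Errfi1 and Etv genes that was called without replicate 2. Of these 12, 1 would not have passed the filter without the kainic acid arrays. Outside those arrays Spry2 was low, at 7.30 or less, against 8.60, 8.52 and 8.45 in them. Among 16 tested of 26 components of the MAP kinase cascade 0 were called, and the median change was -0.04. Of these 16, 1 would not have passed the filter without the arrays of the combined treatment. Map2k1, which encodes MEK itself, was at 8.48, 8.38 and 8.48 against 8.57, 8.63 and 8.61, below all SL327 arrays by 0.16 without passing the test (adjusted p = 0.364). Sik1, a salt-inducible kinase and CREB target, was at 9.05, 8.83 and 8.84 against 8.56, 8.80 and 8.90, beside a kainic acid response of 1.76 (interaction -1.61, adjusted p = 1.37e-05). Its vehicle arrays had 8.06, 8.06 and 8.22, so that the SL327 arrays already exceeded those of vehicle. The median over 22 tested of 30 salt-inducible kinases and CREB regulators was 0.01.

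**Figure D4:**
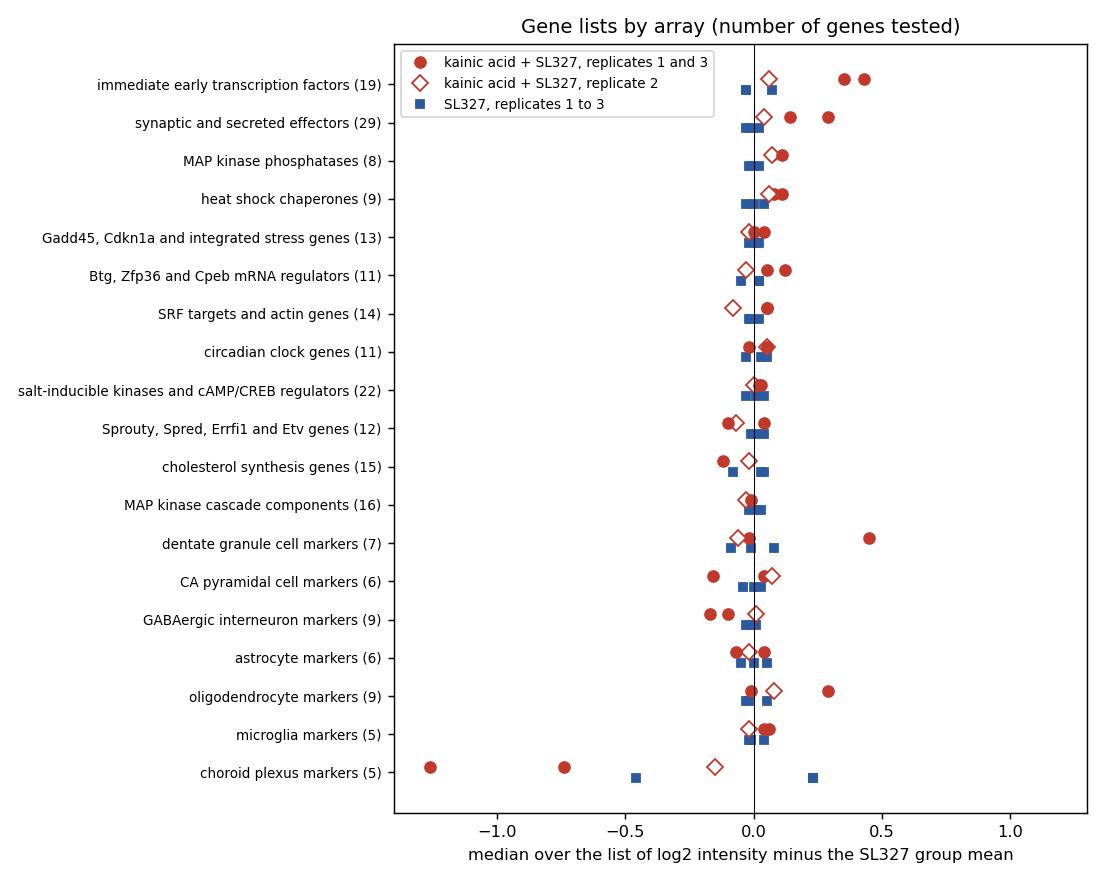
Median over each gene list of the log2 intensity minus the mean of the SL327 group (horizontal axis), by array of kainic acid with SL327 (circles, open diamond for replicate 2) and of SL327 alone (squares). The immediate early transcription factors had 0.35 in replicate 1, 0.06 in replicate 2 and 0.43 in replicate 3, and the choroid plexus markers -0.74, -0.15 and -1.26.

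Genes of stress, RNA turnover and the cytoskeleton moved little, apart from single members. Gadd45b, which responds to stress and neuronal activity, was at 8.33, 7.74 and 8.63 in the combined treatment, against 7.88, 7.85 and 7.89 in SL327 alone, a change of 0.36 (SE 0.17) beside 2.10 with kainic acid (interaction -1.74, adjusted p = 6.76e-04). Ppp1r15a, which restores translation after stress, was at 7.82, 7.19 and 8.06 against 7.01, 7.32 and 7.42, with 0.44 (SE 0.18) and 0.69 without replicate 2 (adjusted p = 0.0367). Cdkn1a, the p53 target that halts the cell cycle, was at 8.16, 8.07 and 7.95 against 7.93, 8.06 and 7.99 beside a response of 1.00. Of 20 genes of this stress list 13 were tested, and 4 of these would not have passed the filter on low values without the kainic acid arrays. Ppp1r15a was the member called without replicate 2, and the median was 0.05. The medians were 0.03 over 11 mRNA regulators, 0.02 over 14 SRF targets and actin genes and 0.12 over 9 heat shock chaperones, and among them Btg2 was the member called without replicate 2. Of the mRNA regulators, 3 would not have passed the filter without the kainic acid arrays. Vcl, an SRF target that links actin to membranes, was at 7.80, 7.71 and 7.77 against 7.79, 7.60 and 7.74 beside a response of 1.14 (interaction -1.09, adjusted p = 1.17e-04).

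Among metabolic and membrane genes, Msmo1 and Slc2a1 were near the SL327 level and Kcnj2 was higher in replicates 1 and 3. Msmo1, an enzyme of cholesterol synthesis, was at 7.73, 7.80 and 7.49 in the combined treatment, against 7.87, 7.70 and 7.86 in SL327 alone, beside a kainic acid response of 1.13 (interaction -1.27, adjusted p = 3.26e-05). Slc2a1, the glucose transporter of the blood-brain barrier, was at 9.52, 9.59 and 9.48 against 9.44, 9.55 and 9.55 beside a response of 1.04 (interaction -1.02, adjusted p = 3.26e-05). In both genes the arrays overlapped. Of 15 tested cholesterol synthesis genes, 9 glucocorticoid-responsive genes and 21 glutamate and GABA receptor subunits, 0 were called with or without replicate 2, and the medians were -0.03, -0.02 and 0.02. Gabra3, a subunit of the GABA-A receptor, was at 10.68, 10.65 and 10.09 against 10.89, 10.74 and 10.99, and its response was opposite in sign to the 0.40 with kainic acid (interaction -0.80, adjusted p = 0.0192). Kcnj2, an inward rectifier, was at 7.67, 6.87 and 7.98 against 7.08, 6.71 and 6.73, the only one of 20 tested potassium channel genes called without replicate 2 (0.99, adjusted p = 0.0399). Of these 20, 1 would not have passed the filter without the kainic acid arrays.

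The strongly induced genes with the smallest share of the kainic acid change had values slightly below zero under inhibitor. They were Ccn2, a matricellular protein, Mest, an imprinted gene with 2 probe sets, Kcnf1, a potassium channel subunit, and Kitl, the ligand of the Kit receptor. Kitl was at 6.45, 6.45 and 6.33 in the combined treatment, against 6.78, 6.44 and 6.55 in SL327 alone, a change of -0.18 (SE 0.14) beside 1.32 with kainic acid (interaction -1.51, adjusted p = 3.62e-04). Kcnf1 was at 8.25, 8.53 and 7.95 against 8.61, 8.27 and 8.36, beside a response of 0.98 (interaction -1.16, adjusted p = 0.00557). The interaction passed for Ccn2 and for both Mest probe sets as well.

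The study's text names 12 genes as only in part dependent on MEK or independent of it, and 7 as dependent. These lists were chosen on these samples, so their direction here is no independent evidence. The study also examined several of these genes by in situ hybridization on brain sections, which was not used here. For Btg2 its text takes partial dependence from the sections rather than from the arrays. Of the 12, 10 were tested, and all had a positive change with a median of 0.42 (0.67 without replicate 2). In each of the 2 lists 1 tested member would not have passed the filter without the kainic acid arrays. At an unadjusted p under 0.05, 6 were higher (2.66% of all tested probe sets), and 5 were called without replicate 2 (0.376% of all). Of the other 7, 6 were tested, and all had a positive change with a median of 0.22 (0.36 without replicate 2). Beside the same shares of all probe sets, 2 were higher at an unadjusted p under 0.05. Lncpint, a long non-coding RNA, was called without replicate 2. Lncpint was at 9.37, 8.65 and 9.33 in the combined treatment, against 8.89, 8.62 and 8.66 in SL327 alone.

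Among lower probe sets most changes were small. Polr2e, which encodes a subunit that RNA polymerases share, was at 9.26, 8.89 and 9.06 in the combined treatment, against 9.63, 9.65 and 9.59 in SL327 alone. Its kainic acid and vehicle arrays lay between 8.75 and 9.21, so that SL327 alone was the high group. The change was -0.56 (SE 0.10, adjusted p = 0.165), and the response differed from that without inhibitor (interaction -0.65, adjusted p = 0.0176). The 15 probe sets called lower without replicate 2 included Vwc2l, a secreted protein of the nervous system, with 7.24, 8.35 and 7.46 against 8.61, 8.29 and 8.30 in probe set 6750318, and Oprl1, the nociceptin receptor, with 7.28, 7.57 and 7.22 against 7.66, 7.56 and 7.67. Oprl1 was called in 26 of 28 alternatives. Ero1b, an oxidase of the endoplasmic reticulum, was at 7.27, 7.45 and 7.18 against 7.75, 7.84 and 7.90 in probe set 7005108, but its probe sets 7001265 and 7005107 changed by 0.22 and -0.04. Of the 15, replicate 2 also lay below all SL327 arrays in 8. With kainic acid alone 3 of the 15 had fallen (12.2% of all tested probe sets) and 0 were induced (7.41% of all). With 15 members these counts say little beside those shares.

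Markers of other cells and tissues differed between the arrays. Markers of choroid plexus, which adjoins the hippocampus, varied widely, with Ttr, the transthyretin it secretes, at 11.13, 11.96 and 9.12 against 11.66, 12.33 and 12.32 in SL327 alone. Over the 5 tested of 10 choroid plexus markers the median relative to the SL327 mean was -0.74, -0.15 and -1.26 in the combined treatment, against -0.46, 0.23 and 0.23 in SL327 alone, so that the groups overlapped, and 0 were called. In such tissue samples fewer cells of a type and less RNA per cell cannot be told apart. Sulf1, an extracellular sulfatase, was among the largest falls with 7.45, 7.43 and 6.15 against 7.57, 8.57 and 8.82, and like Ttr it was lowest in replicate 3 of the combined treatment. The growth hormone gene Gh, a product of the pituitary, was at 7.35, 7.08 and 7.13 against 7.45, 7.61 and 11.88, so that its change of -1.79 rests on replicate 3 of SL327 alone. Without that array limma called 0 higher and 0 lower, and the counts without replicate 2 of the combined treatment were 18 higher and 5 lower in place of 32 and 15. The part of choroid plexus or pituitary RNA in the results was not tested.

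Markers of neurons and glia of the hippocampus differed less. The median changes over 6 tested CA pyramidal cell markers, 9 interneuron markers, 6 astrocyte markers, 9 oligodendrocyte markers, 5 microglia markers and 4 endothelial markers were between -0.09 and 0.12. Of the endothelial markers, 1 would not have passed the filter without the kainic acid arrays. For oligodendrocyte markers the median was 0.29 in replicate 1, above the other arrays of the combined treatment (0.08 and -0.01) and the SL327 arrays (0.05, -0.02 and -0.03). For 7 tested markers of dentate granule cells replicate 1 had a median of -0.02, replicate 2 of -0.06 and replicate 3 of 0.45. Prox1, the transcription factor that marks these cells, was at 10.72, 10.52 and 11.14 in the combined treatment, against 10.36, 10.57 and 10.45 in SL327 alone (probe set 6765165). Its response had the opposite sign to that without inhibitor, where it fell by 0.67 (interaction 1.01, adjusted p = 0.019), and for probe set 6765166 the interaction of 0.32 did not pass. Replicate 2 lay within the SL327 range for Prox1. Calb1 was the 1 marker of the 7 with all 3 arrays of the combined treatment above all SL327 arrays. It was at 9.27, 9.19 and 9.24 against 9.07, 9.10 and 9.12, and 0 of the 7 were called.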

How the data were processed

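Hippocampal RNA of 16 mice was hybridised to Affymetrix mouse exon arrays, 1 mouse per array. The authors normalised the arrays by RMA with the oligo package (versions not given in the sources used here) and deposited log2 intensities, 1 column per sample, so that no background or depth can be recomputed and the number of arrays limits the precision. Of 20372 probe sets, 14704 carried 1 gene name, 713 several and 4955 none. Named probe sets were kept if they exceeded the median of an array's named probe sets on 3 or more arrays (8520, for 7565 genes). A limma (3.58.1, R 4.3.3) fit of the 5 group means gave the contrasts, with Benjamini-Hochberg adjustment over all 8520 and a threshold of 0.05, and was tested on simulated data. Kainic acid responses of at least 0.9 were called strong. A contrast of 3 arrays against 3 cannot pass an exact permutation test below p = 0.1, so none was run.

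Genes were named if among the 10 largest rises or falls with arrays apart, called without replicate 2 of the combined treatment, among the 6 largest changes of a gene list, in a list from the study's text, or among the 5 largest or smallest ratios to the kainic acid response. Fosl2, Jund, Egr3, Bdnf, Nptx2, Dusp4 and Vcl were named after their values were seen. Members and lists were chosen with earlier results of these data known. Promoters came from RefSeq (GRCm38.p6). Nothing used here gives a batch or scan date. Where the labels name no separate litters or days, p values measure the spread between these mice. Alternatives changed the filter, normalisation, weights, samples, block and threshold.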

Additional observations from a re-analysis of the deposited data

Results flagged for a closer look

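The response to kainic acid with SL327 differed from that without inhibitor, by limma's interaction term at an adjusted p under 0.05, for the named genes that follow. All values are log2 responses with inhibitor minus those without, and because most of these genes were named for a strong kainic acid response, the count of smaller responses is a description. Among immediate early transcription factors the differences were -1.97 for Egr3, -1.60 for Fosl2, -1.59 for Nr4a3, -1.00 for Jun and -0.86 for Jund. Among synaptic and secreted effectors they were -2.34 for Inhba, -2.28 for Nptx2, -2.22 for Ptgs2, -1.56 for Arc, -1.52 for Homer1, -0.96 for Plk2 and -0.91 for Bdnf. Among regulators of kinase signalling they were -2.14 for Dusp1, -1.72 for Errfi1, -1.61 for Sik1, -1.38 for Dusp5, -1.31 for Spry2 and -0.62 for Dusp4.

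Smaller responses with inhibitor were also found for Gadd45b (-1.74), Cdkn1a (-0.93), Per1 (-1.21), Tiparp (-1.30), Ranbp2 (-1.30 for probe set 6768094), Vcl (-1.09), Msmo1 (-1.27), Slc2a1 (-1.02), Plpbp (-0.68), Kitl (-1.51), Ccn2 (-1.20), Kcnf1 (-1.16) and Mest (-1.13 for probe set 7000320). For Dusp1, Sik1, Errfi1, Egr3, Per1, Ccn2, Cdkn1a, Plk2, Slc2a1 and Plpbp all SL327 arrays already lay above those of vehicle. For Arc, Spry2, Homer1, Inhba, Ptgs2, Bdnf, Dusp5 and Ranbp2 (probe set 6768094) they all lay below. The margin between the nearest arrays was narrow for several of these genes, among them Inhba, Ptgs2, Bdnf and Dusp5. Gabra3 (-0.80) and Polr2e (-0.65) were lower in the combined treatment than in SL327 alone. The responses of Prox1 (1.01) and Gm5088 (0.56) were more positive with inhibitor, as was that of Ddx6 in probe set 6988655 (1.34, adjusted p = 0.0125).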

How the results depend on the processing

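Array weights gave 5 higher and 6 lower probe sets with all 3 mice of the combined treatment, in place of 0 and 0, and a fit of both groups alone without replicate 2 gave 21 and 4. Leaving out 1 array at a time gave between 0 and 32 higher and between 0 and 15 lower. The 322 smaller and 169 larger responses with inhibitor became 555 and 585 with array weights, 502 and 579 with p adjusted within probe sets changed by kainic acid, and 488 and 369 at a threshold of 0.1. The larger ones numbered 88 with all probe sets, 261 with quantile normalisation and 90 with the replicate block. Leaving out 1 array gave between 197 and 432 smaller and between 55 and 311 larger responses.

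Alternatives for the calls without replicate 2 were chosen after seeing the data. The 32 higher became 21 without a filter, with a filter of 6 arrays, with a filter on the compared groups or with a fit of both groups, 16 with all probe sets, 20 with the 4 injected groups, 97 with array weights and 56 at a threshold of 0.1. The 15 lower became 6 without a filter, 3 with all probe sets, 9 with centred arrays, 10 with quantile normalisation, 4 with a fit of both groups, 132 with array weights and 49 at a threshold of 0.1. Leaving out a further array gave between 6 and 50 higher and between 0 and 39 lower, with 6 and 0 when replicate 3 of the combined treatment was left out as well and 23 and 20 when replicate 1 was. Those fits hold 1 array of the combined treatment, which is assumed to vary like the other groups. The cause of these changes was not tested.

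Same-numbered arrays had correlations of deviations of -0.10, -0.05 and -0.21, so no shared deviation was seen. With 3 arrays a group this cannot show whether same-numbered mice were handled together, and the labels do not say. With the replicate block limma called 0 higher and 0 lower, and 24 and 12 without replicate 2. Of 66 genes followed, 5 changed sign under any alternative (Nptx2, Dusp4, Slc2a1, Egr3 and Ddx6 in probe set 6988653), whose changes were between -0.01 and 0.13. The median change of strongly induced probe sets stayed between 0.19 and 0.35. With 3 arrays a group, and 2 without replicate 2, small changes could not be measured precisely, and whether replicate 2 had a weaker seizure cannot be told from the labels.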
